A study of Mus musculus with 14 samples.

Results

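The amino acid transporter families of the mouse were read out as the genes of the deposited count table whose symbols begin with Slc1a, Slc3a, Slc6a, Slc7a, Slc36a, Slc38a or Slc43a followed by a number, which gave 64 of 22155 genes. The measurements are RNA-seq counts from MLL-AF9-Cas9+ cells, a leukemia made by carrying the MLL-AF9 fusion on a retrovirus into bone marrow Lin- cells and passing them through transplanted mice, whose blasts were then grown in medium with serum, SCF, IL-3, IL-6 and added L-glutamine. Both groups express Cas9 from a lentivirus and carry an sgRNA from a second lentivirus with an RFP reporter and puromycin resistance, and both were selected in puromycin at 2 μg/ml for 3 days. They differ in the sgRNA, a control (sgCtrl, 3 libraries) or one against Sgf29 (sgSgf29, 3 libraries), the gene of a Tudor domain subunit of the SAGA and ATAC histone acetyltransferase complexes. Sources used here do not say whether the numbered libraries of a group are separate cultures or different sgRNA sequences, so the p-values cover only the spread between these libraries, which may be technical.

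Members of these families carry amino acids across the plasma membrane or out of the lysosome. Some move them with sodium or protons, and others exchange an amino acid inside the cell for one outside it. The light subunits of the Slc7a family work as pairs with a heavy subunit of the Slc3a family, which brings them to the cell surface. In blood cells and leukemias these proteins supply glutamine, leucine, arginine, serine, glycine and cystine, and several of their genes are known targets of the amino acid starvation response through ATF4.

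Read counts assigned to genes ran from 16003990 to 21786618 per library. Sgf29 mRNA measured 36.2 to 40.4 CPM in the sgCtrl and 12.6 to 17.4 CPM in the sgSgf29 libraries, where CPM is the count scaled to the effective library size after TMM scaling (trimmed mean of M values). Ribosomal protein genes took 18.9 to 19.6% of the gene counts in sgCtrl and 12.1 to 13.7% in sgSgf29, and the TMM factors were 0.917 to 0.934 and 1.06 to 1.10. With scaling by library size alone the median of all genes went from a log2 fold change of 0.01 to 0.24, and changes below are with TMM unless said otherwise.

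Of the 64 genes, 28 had enough counts to be tested, 11 had from 1 to 24 counts over all 6 libraries, and 25 had none. In the sgSgf29 cells, 11 of the 28 tested genes were lower and 9 higher (adjusted p under 0.05 by edgeR's quasi-likelihood test, adjusted over 11169 genes), and 8 did not pass. These shares of 39.3% lower and 32.1% higher stand beside a background of 34.4% lower and 35.4% higher among all genes tested, so the count of calls in the families is near that of the transcriptome. At 2-fold or more, 3 members were lower and 6 were higher (10.7% and 21.4%), beside 4.67% and 10.1% of all genes. The groups did not overlap for 11 members that were lower and 8 that were higher, beside 35.1% and 37.0% of all genes. Median log2 fold change was -0.07 for the tested members and 0.01 for all genes, whereas the median absolute change was 0.71 against 0.42. With library size alone, 9 members were lower and 13 were higher, beside 2385 lower and 5575 higher of all 11169 genes.

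**Figure D1:**
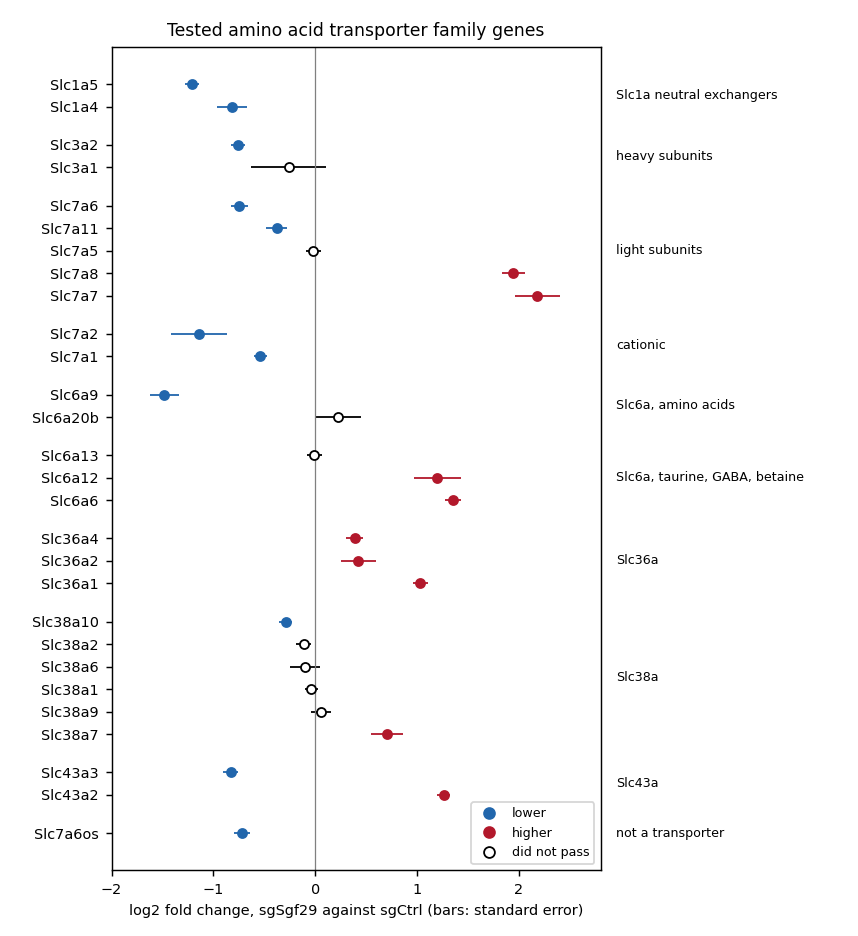
Log2 fold change of the 28 tested genes in sgSgf29 against sgCtrl cells (x axis), ordered by role, with the standard error as bars. Filled points are the 11 lower and 9 higher genes by edgeR (adjusted p under 0.05), open points the 8 that did not pass; the values run from -1.48 for Slc6a9 to 2.18 for Slc7a7.

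The start regions of 5 members are printed here because their calls are described below and each holds a short motif of a factor linked to amino acid supply. RefSeq windows of 300 bases (250 before to 50 after a transcript start, GRCm38.p6) were given for 21 of the 28 tested members. The 7 without a window were Slc1a5, Slc7a2, Slc43a3, Slc6a6, Slc36a2, Slc38a1 and Slc7a5, so they are in none of the motif counts. Both strands were searched for TGATGNAA, the core of the composite site bound by ATF4 with a C/EBP partner, for CACGTG, the E-box that MYC and the lysosomal regulators TFEB and TFE3 can bind, and for AGGAAGT, the core of a PU.1 site. Each printed stretch runs from 150 bases before to 20 bases after the start, 5′ to 3′ on the gene's strand, and capitals mark motif matches. The Slc7a11 stretch (chr3:50443594-50443763, minus strand) holds TGATGNAA at 66 and 47 bases before the start, that of Slc1a4 (chr11:20332694-20332863, minus strand) at 4 bases before it, and that of Slc7a7 (chr14:54417925-54418094, minus strand) at 141 bases and 1 base before it. Slc7a7 has 5 annotated start windows, of which 2 hold TGATGNAA and the one with both matches is shown. The stretch shown for Slc7a7 lies wholly upstream of the gene's span in the GENCODE annotation (chr14:54369442-54417780). CACGTG stands at 31 and 3 bases before the start of Slc36a1 (chr11:55204190-55204359, plus strand) and at 34 bases before that of Slc38a7 (chr8:95853472-95853641, minus strand). Positions give the first base of a match, so the matches nearest the start in Slc1a4, Slc7a7 and Slc36a1 run across it.
Slc7a11: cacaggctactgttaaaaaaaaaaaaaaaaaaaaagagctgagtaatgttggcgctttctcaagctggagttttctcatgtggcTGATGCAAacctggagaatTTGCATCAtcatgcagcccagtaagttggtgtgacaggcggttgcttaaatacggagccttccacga
Slc1a4: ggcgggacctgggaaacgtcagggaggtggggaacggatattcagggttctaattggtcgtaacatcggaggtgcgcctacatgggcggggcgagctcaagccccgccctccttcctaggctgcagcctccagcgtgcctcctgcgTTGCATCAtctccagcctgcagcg
Slc7a7: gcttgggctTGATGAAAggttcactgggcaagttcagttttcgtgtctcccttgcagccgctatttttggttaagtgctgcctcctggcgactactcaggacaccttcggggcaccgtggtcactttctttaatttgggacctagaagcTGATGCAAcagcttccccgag
Slc36a1: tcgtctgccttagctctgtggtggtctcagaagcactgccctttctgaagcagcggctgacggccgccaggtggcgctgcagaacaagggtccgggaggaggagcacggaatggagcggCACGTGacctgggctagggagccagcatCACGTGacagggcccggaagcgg
Slc38a7: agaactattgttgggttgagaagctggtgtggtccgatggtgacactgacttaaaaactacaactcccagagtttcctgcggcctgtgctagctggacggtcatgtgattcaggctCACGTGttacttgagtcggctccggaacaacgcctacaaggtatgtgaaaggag
Among all 32851 windows, 3.97% held TGATGNAA, 7.15% held CACGTG and 9.35% held AGGAAGT. Counted per gene, as the members are below, the shares were 4.51%, 8.09% and 10.7% of 27025 genes. The 21 members had 36 windows, more per gene than the 27025 genes with 32851, so the shares are not strictly alike. Of the lower members 8 had a window, of which 2 held TGATGNAA (Slc7a11 and Slc1a4), 0 held CACGTG and 1 held AGGAAGT (Slc38a10). Of the higher members 7 had a window, of which 2 held CACGTG (Slc36a1 and Slc38a7) and 1 held both TGATGNAA and AGGAAGT (Slc7a7, whose AGGAAGT, 216 bases before the start, lies outside the printed stretch). None of the 6 members that had a window and did not pass held any of the 3 motifs. So TGATGNAA stood in start windows of members of either direction, and a match describes letters, not binding.

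Both neutral amino acid exchangers of the Slc1a family were lower. Slc1a5 (chr7:16781340-16798274 of GRCm38), known as ASCT2, exchanges glutamine and other neutral amino acids with sodium. Its level was 430.9, 424.4 and 359.3 CPM in sgCtrl libraries 1 to 3 and 177.3, 177.2 and 169.9 CPM in sgSgf29. All sgSgf29 values were below all sgCtrl values, and the fall was 1.21 on the log2 scale (standard error 0.07, edgeR's quasi-likelihood adjusted p = 7.9e-12). Slc1a4, the related exchanger of alanine, serine, cysteine and threonine, measured 18.7, 21.8 and 23.1 CPM in sgCtrl and 15.6, 12.1 and 8.70 CPM in sgSgf29. The groups did not overlap for Slc1a4 either, although its sgSgf29 libraries were spread over a wider range for their level, and the log2 fold change was -0.82 (standard error 0.15). Of the glutamate and aspartate transporters of the same family, Slc1a3, Slc1a6 and Slc1a7 were undetected, and Slc1a1 and Slc1a2 had 1 count each.

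Slc3a2 (chr19:8706882-8723369), the heavy subunit CD98hc that most light subunits of blood cells need, was lower as well. It stood at 284.7, 285.7 and 291.4 CPM in sgCtrl and at 188.0, 167.9 and 154.5 CPM in sgSgf29. The difference of -0.76 on the log2 scale (standard error 0.07, edgeR's quasi-likelihood adjusted p = 6.7e-09) was far larger than the spread within either group. Slc3a1, the heavy subunit of kidney and gut, was near the limit of the test at 12 to 30 counts per library and did not pass (log2 fold change -0.26, 95% interval -1.02 to 0.50). Prepl, which fell by 0.90 on the log2 scale, covers 26.5% of the Slc3a1 exon bases on the opposite strand, and the strand setting of the counting is not given in the sources used here.

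The 5 tested light subunits moved in different directions. Slc7a5 (LAT1), which takes up leucine and other large neutral amino acids, measured 187.7, 191.4 and 219.7 CPM in sgCtrl and 214.9, 194.6 and 182.2 CPM in sgSgf29. These values overlapped, and the log2 fold change of -0.02 did not pass, with a 95% interval from -0.17 to 0.14 (with library size alone it was 0.21 and passed as higher). Slc7a6 (y+LAT2), an exchanger of arginine and glutamine, fell by 0.75 in log2 units, from 57.7, 57.5 and 48.8 CPM to 30.1, 35.4 and 31.8 CPM. Slc7a11 (xCT), which imports cystine in exchange for glutamate, had 26.1, 30.5 and 25.0 CPM in sgCtrl and 22.0, 22.8 and 17.6 CPM in sgSgf29. Its groups lay close together without overlapping, and the log2 fold change of -0.38 (standard error 0.11, edgeR's quasi-likelihood adjusted p = 0.0036) became -0.15 with library size alone and no longer passed (adjusted p = 0.23 from edgeR).

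Slc7a8 and Slc7a7 rose the most of all tested members. Slc7a8 (chr14:54722209-54781946), known as LAT2 and an exchanger of small and large neutral amino acids, measured 8.52, 11.9 and 10.4 CPM in sgCtrl and 43.7, 40.0 and 34.9 CPM in sgSgf29. That is 3.84-fold higher, or 1.94 on the log2 scale (standard error 0.12, edgeR's quasi-likelihood adjusted p = 7.6e-12). Slc7a7 (chr14:54369442-54417780), known as y+LAT1, exports arginine and lysine in exchange for neutral amino acids and is known from macrophages and epithelia. It was low in both groups, with 1.46, 1.21 and 1.25 CPM in sgCtrl (18 to 25 counts per library) and 6.86, 5.27 and 5.72 CPM in sgSgf29 (117 counts in each library), a 4.53-fold rise. The groups were well apart for both genes, which lie 304 kb from each other on chromosome 14. Oxa1l covers 7.0% of the Slc7a7 exon bases on the opposite strand and went the other way, from 84.7 to 61.5 CPM. In the same libraries the summed level of mature myeloid markers was 10312 to 10879 CPM in sgCtrl and 27208 to 28835 CPM in sgSgf29, and its part in these rises was not tested. S100a8 and S100a9, named after their values were seen, held 5942 to 6549 CPM and 20304 to 21939 CPM of these sums, and the other 22 listed markers 4330 to 4476 CPM and 6896 to 6916 CPM. Other light subunits were undetected (Slc7a9, Slc7a10, Slc7a12 and Slc7a15) or had 2 counts in all (Slc7a13).

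Levels of different genes were compared per kb of exon. Exon length counts all annotated exons of a gene in any transcript, and the annotation used for counting is not given. Shares, ratios and ranks by level per kb, here and below, depend on these lengths. The 5 light subunits summed to 67.3 to 74.2 CPM per kb in sgCtrl and 66.1 to 76.9 CPM per kb in sgSgf29, ranges that overlap. Slc3a2 fell from 81.4 ± 1.03 to 48.2 ± 4.78 CPM per kb (SD, n = 3 each), so the ratio of light subunits to Slc3a2 was 0.834 to 0.898 in sgCtrl and 1.44 to 1.51 in sgSgf29. The share of Slc7a8 in the light subunit level was 2.53 to 3.44% in sgCtrl and 10.5 to 11.4% in sgSgf29, and that of Slc7a6 was 14.4 to 18.8% and 8.57 to 10.8%. Slc7a5 held most of the level in every library, 74.7 to 79.9% in sgCtrl and 73.5 to 75.3% in sgSgf29. The ratio and the shares do not depend on the scaling between libraries, but they do depend on the exon lengths. They were chosen after the values were seen and were not tested.

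**Figure D2:**
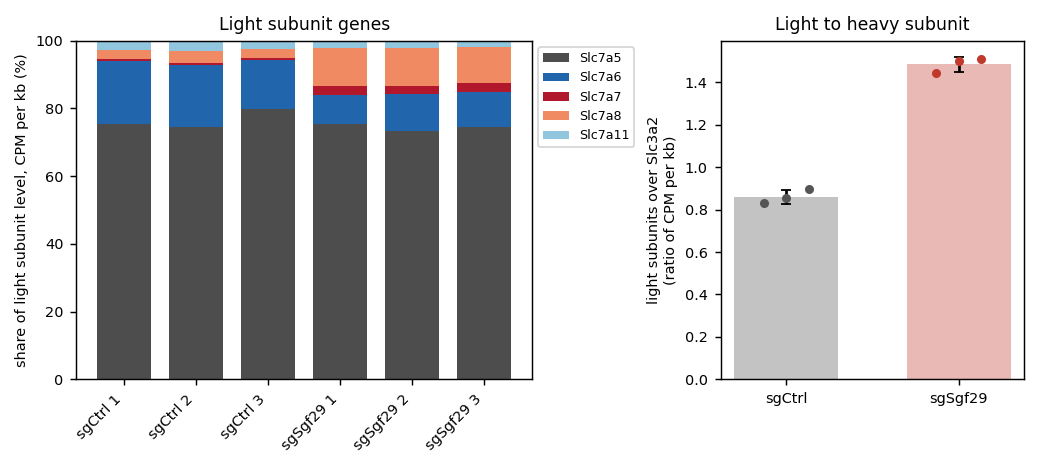
Left, share of each light subunit gene in their summed CPM per kb of exon (y axis, %) in each of the 6 libraries; right, ratio of that sum to Slc3a2, with bars as means, error bars as the SD of 3 libraries and points as single libraries. Slc7a8 takes 2.53 to 3.44% of the sgCtrl and 10.5 to 11.4% of the sgSgf29 level, and the ratio is 0.834 to 0.898 in sgCtrl and 1.44 to 1.51 in sgSgf29.

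Cationic amino acid transporters, which take up arginine, lysine and ornithine without a heavy subunit, were both lower where tested. Slc7a1 (CAT1) fell from 90.4, 86.2 and 96.4 CPM to 63.2, 63.0 and 61.8 CPM, with a tight spread in sgSgf29 and a log2 fold change of -0.54 (standard error 0.07). Slc7a2 (CAT2), inducible in macrophages, was rare and fell from 2.53 ± 0.150 to 1.16 ± 0.294 CPM (SD, n = 3 each). Slc7a3 had 8 counts in all, and Slc7a4 and Slc7a14 were undetected. Slc7a6os matched the symbol rule but is not a transporter and was named for its place on the strand opposite Slc7a6. It measured 70.2, 71.1 and 59.5 CPM in sgCtrl and 43.4, 41.1 and 37.5 CPM in sgSgf29, a fall of 0.72 on the log2 scale beside the 0.75 of its neighbor. The annotated ends of this pair lie 2.01 kb apart and share no exon bases.

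The deepest fall among the tested members was that of Slc6a9 (chr4:117834506-117875198), the glycine transporter GlyT1. Its level was 41.0, 49.3 and 41.9 CPM in sgCtrl and 20.9, 15.8 and 10.9 CPM in sgSgf29. The groups were clearly apart, with a log2 fold change at -1.48 (standard error 0.14, edgeR's quasi-likelihood adjusted p = 1.2e-08) and a range from -1.71 to -1.26 when each library was left out in turn. Ccdc24 covers 27.8% of the Slc6a9 exon bases on the opposite strand and fell by 1.42 in log2 units, from 5.62 to 2.10 CPM, and reads of the pair cannot be told apart if strand was not used in counting. Slc6a20b, of the imino acid transporters, measured 3.53 ± 1.02 and 4.03 ± 0.670 CPM (SD, n = 3 each) and did not pass (log2 fold change 0.22, 95% interval -0.25 to 0.69). Sacm1l, at 46.9 and 46.8 CPM, covers 21.1% of the Slc6a20b exon bases on the opposite strand, so part of the Slc6a20b counts may not be its own. The other 8 amino acid transporters of the family, Slc6a5, Slc6a7, Slc6a14, Slc6a15, Slc6a17, Slc6a18, Slc6a19 and Slc6a20a, were undetected.

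Transporters of taurine, betaine and GABA in the Slc6a family were higher or did not pass. Slc6a6 (chr6:91684053-91759066), the taurine transporter, rose from 33.9, 39.0 and 44.1 CPM to 94.1, 101.9 and 102.8 CPM. Every sgSgf29 library was above every sgCtrl library, and the rise was 2.55-fold, or 1.35 on the log2 scale (standard error 0.08, edgeR's quasi-likelihood adjusted p = 1.0e-11). Slc6a12, which carries betaine and GABA, was rare and rose from 1.71 ± 0.204 to 3.90 ± 0.383 CPM (SD, n = 3 each), or by 1.20 on the log2 scale. Slc6a13, a GABA and taurine transporter that ends 5.34 kb upstream of Slc6a12 on the same strand, was at 70.1 ± 4.10 and 69.7 ± 4.71 CPM and did not pass (log2 fold change -0.01, 95% interval -0.16 to 0.14), although with library size alone it was 0.22 and passed as higher. The creatine transporter Slc6a8 had 22 counts in all and was not tested. Slc6a11 was undetected, as were Slc6a2 among the monoamine transporters and Slc6a21, while Slc6a3, Slc6a4 and Slc6a16 had 1 to 2 counts in all.

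All 3 tested members of the Slc36a family were higher. Slc36a1 (chr11:55204350-55236330), known as PAT1 and found on lysosomes, whose start region with its pair of CACGTG matches is printed above, measured 27.9, 24.4 and 26.1 CPM in sgCtrl and 50.8, 56.0 and 53.4 CPM in sgSgf29. It rose by 2.05-fold with no overlap (log2 fold change 1.03, standard error 0.08, edgeR's quasi-likelihood adjusted p = 3.3e-10). Slc36a4, a carrier of proline and tryptophan, went from 36.5, 36.6 and 43.9 CPM to 46.8, 52.0 and 54.5 CPM, a smaller rise of 0.39 on the log2 scale. Slc36a2, a carrier of glycine and proline, had 5.53, 6.16 and 4.50 CPM in sgCtrl and 8.26, 7.62 and 5.72 CPM in sgSgf29. Its groups overlapped, and its call (log2 fold change 0.42, edgeR's quasi-likelihood adjusted p = 0.038) was lost without sgCtrl 1 (adjusted p = 0.061), sgCtrl 3 (0.16), sgSgf29 1 (0.15) or sgSgf29 2 (0.12), and with DESeq2 (0.066). Slc36a3 had 24 counts, of which 22 were in the sgSgf29 libraries, and was not tested.

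Of the 6 tested members of the Slc38a family, the sodium-coupled neutral amino acid transporters, 4 did not pass. Slc38a7, known for the export of glutamine from lysosomes and printed above with its CACGTG match, rose from 4.51, 5.56 and 6.69 CPM to 10.2, 9.24 and 8.21 CPM. The groups did not overlap, and the log2 fold change was 0.71 (standard error 0.16, edgeR's quasi-likelihood adjusted p = 5.7e-04). Slc38a10 fell slightly, from 194.4, 207.7 and 196.7 CPM to 159.7, 165.4 and 164.2 CPM, or by 0.29 on the log2 scale, and with library size alone the value was -0.06 and did not pass (adjusted p = 0.40 from edgeR). The plasma membrane glutamine transporters Slc38a1 and Slc38a2 were at 134.1 ± 8.23 and 136.8 ± 12.5 CPM in sgCtrl and 130.6 ± 1.43 and 126.4 ± 7.58 CPM in sgSgf29 (SD, n = 3 each). Their log2 fold changes were -0.04 (95% interval -0.17 to 0.09) and -0.11 (-0.26 to 0.04), both turned positive with library size alone (0.19, which passed as higher, and 0.12, which did not), and Slc38a2 passed as lower without sgCtrl 3 (-0.19, adjusted p = 0.011 from edgeR). Slc38a9, the lysosomal arginine sensor of the mTORC1 pathway, was at 22.7 ± 2.45 and 23.5 ± 2.02 CPM (log2 fold change 0.06, 95% interval -0.15 to 0.27, but 0.29 and called higher with library size alone), and Slc38a6 at 8.27 ± 1.03 and 7.69 ± 0.978 CPM (-0.10, -0.41 to 0.21, and 0.13 without passing under library size alone). Slc38a4 had 4 counts in all, and Slc38a3, Slc38a5, Slc38a8 and Slc38a11 were undetected.

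In the Slc43a family, the pair of tested genes moved in opposite directions. Slc43a2 (chr11:75531694-75577575), the facilitated carrier LAT4 of branched-chain amino acids, phenylalanine and methionine, rose from 49.8, 48.2 and 51.8 CPM to 119.4, 124.0 and 115.6 CPM. Slc43a3 (chr2:84936579-84958509), which belongs to the family by sequence but is known as a carrier of purine nucleobases, fell from 123.9, 130.6 and 102.8 CPM to 67.1, 67.5 and 65.9 CPM. The log2 fold changes were 1.26 for Slc43a2 (standard error 0.07, edgeR's quasi-likelihood adjusted p = 9.8e-13) and -0.83 for Slc43a3 (standard error 0.08). Within a library, the counts of Slc43a2 per 100 counts of Slc43a3 were 36.9 to 50.4 in sgCtrl and 175.5 to 183.8 in sgSgf29. Slc43a1, the related carrier LAT3, had 22 counts in all, 17 in sgCtrl and 5 in sgSgf29, and was not tested.

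**Figure D3:**
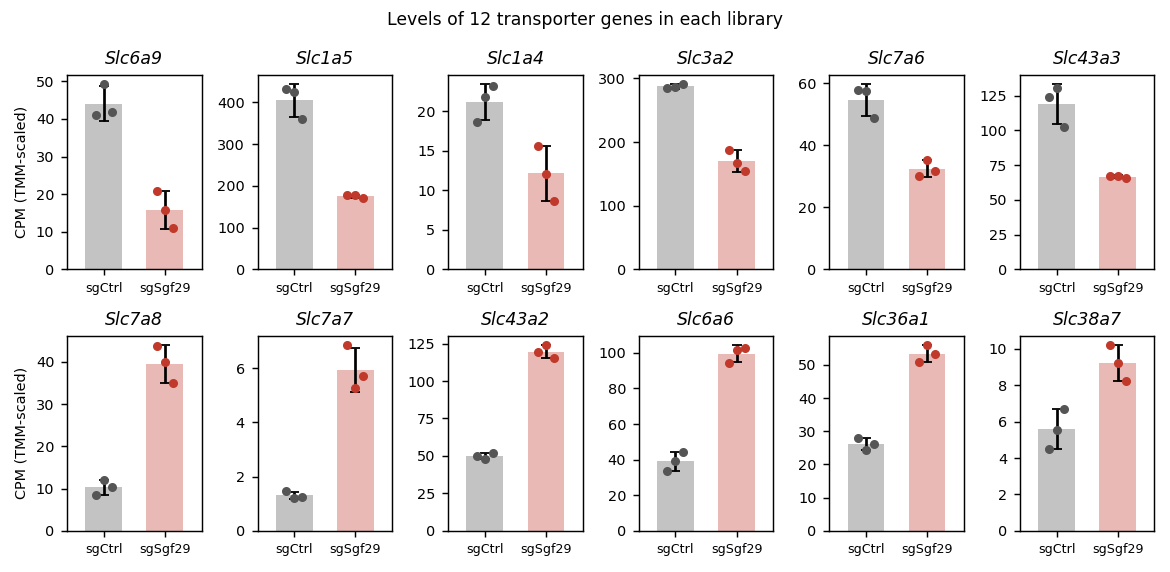
CPM after TMM scaling (y axes, each from 0) of 12 transporter genes in the sgCtrl and sgSgf29 libraries, with bars as means, error bars as the SD of 3 libraries and points as single libraries. All 12 were picked from the called members whose groups do not overlap, so their separation follows from the choice. Among all genes tested, 35.1% (lower) and 37.0% (higher) did not overlap either. Slc1a5 is at 359.3 to 430.9 CPM in sgCtrl and 169.9 to 177.3 CPM in sgSgf29, and Slc7a8 at 8.52 to 11.9 and 34.9 to 43.7 CPM.

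Ordered by level per kb of exon, the most abundant members in sgCtrl were Slc1a5 (97.0 ± 9.49 CPM per kb), Slc3a2 (81.4 ± 1.03) and Slc7a5 (53.8 ± 4.73). In sgSgf29 the order at the top was Slc7a5 (53.2 ± 4.44), Slc3a2 (48.2 ± 4.78) and Slc1a5 (41.9 ± 1.01). Within each sgSgf29 library Slc7a5 was above Slc3a2, at 57.9, 52.5 and 49.1 against 53.3, 47.6 and 43.8 CPM per kb. Slc38a10 was at rank 4 in both groups, at 31.1 ± 1.11 and 25.4 ± 0.471 CPM per kb. Slc43a2 moved from rank 15 to rank 8, Slc6a6 from 17 to 9 and Slc7a8 from 18 to 12, while Slc6a9 went from rank 10 to rank 18. Summed over the 27 tested members other than Slc7a6os, the level was 1964 to 2035 CPM in sgCtrl and 1612 to 1714 CPM in sgSgf29 with TMM, but 1804 to 1899 and 1756 to 1850 CPM with library size alone, where the groups overlap. The count of Slc1a5 per 100 counts of Slc38a2, a ratio within each library, was 293.4 to 297.7 in sgCtrl and 132.5 to 143.2 in sgSgf29.

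**Figure D4:**
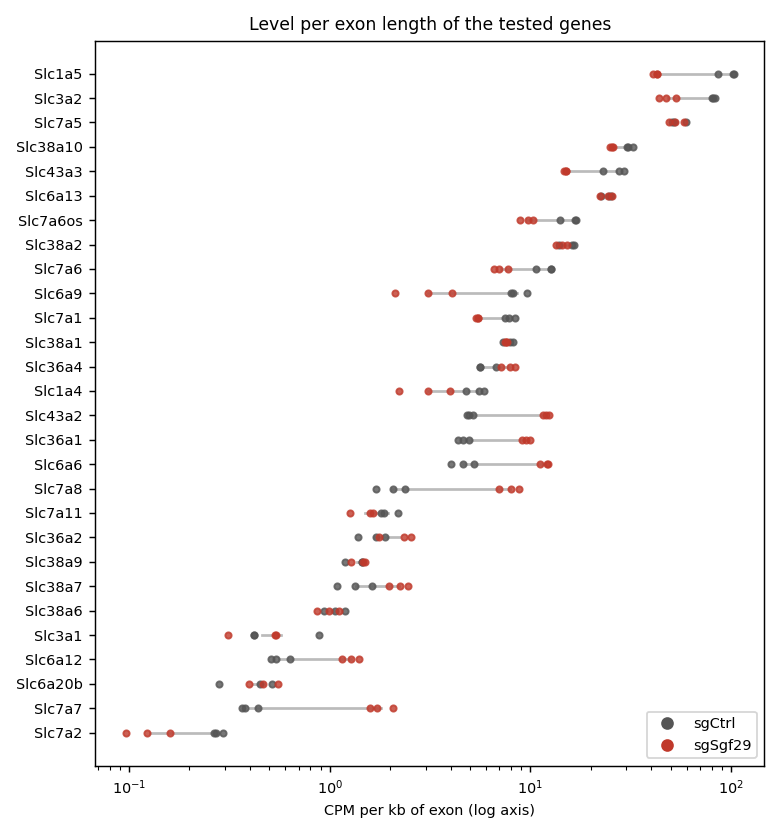
CPM per kb of exon (x axis, log scale) of the 28 tested genes in each sgCtrl and sgSgf29 library, ordered by the sgCtrl mean, with grey lines joining the group means. Slc1a5 goes from 97.0 to 41.9 CPM per kb and Slc7a8 from 2.05 to 7.90, while the points of Slc7a5 and Slc6a13 overlap.

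Genes of the amino acid starvation response, the program that ATF4 drives when amino acids are short, were mostly lower. Of 24 listed genes, 16 were lower and 4 higher, 4 did not pass (13 lower and 7 higher with library size alone), and the list had a median log2 fold change of -0.60 beside 0.01 for all genes. Psat1 and Phgdh, enzymes of serine synthesis, fell by 1.56 and 1.06 on the log2 scale, and Shmt2, which makes glycine from serine in mitochondria, fell by 0.95. Ddit4, an inhibitor of mTORC1, fell by 1.02, from 483.1 ± 62.6 to 238.2 ± 15.5 CPM (SD, n = 3 each). Atf4 itself, chosen after its value was seen, fell from 411.1 ± 7.53 to 243.7 ± 16.7 CPM. The 4 higher genes were Cebpb, Cebpg, Atf3 and Nupr1, with log2 fold changes of 0.44, 0.47, 0.70 and 0.36. Trib3, Chac1, Ppp1r15a and Sesn2 did not pass. Of the members with TGATGNAA in their start regions, Slc7a11 and Slc1a4 were lower, as most of this list was, and Slc7a7 was higher.

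Among genes that sense amino acids upstream of mTORC1, 11 of 23 tested were higher, 5 were lower and 7 did not pass, beside the 35.4% higher and 34.4% lower of all genes, with a median log2 fold change of 0.16. With library size alone 14 of them were higher and 1 was lower, beside 5575 higher and 2385 lower of all 11169 genes. Gatsl2, a paralog of the arginine sensor CASTOR1, rose by 2.28 in log2 units, from 2.26 ± 0.140 to 11.0 ± 0.492 CPM (SD, n = 3 each). Lamtor1 and Lamtor3, of the lysosomal Ragulator complex, rose by 0.37 and 0.44, and Fnip2 rose by 0.83. Other Ragulator genes, named after their values were seen, differed: Lamtor4 rose by 0.19, Lamtor2 fell by 0.29 and Lamtor5 did not pass (-0.11). Besides Lamtor2, the lower genes were Rragd, Mios, Flcn and Wdr24, with log2 fold changes of -1.37, -0.42, -0.32 and -0.19. Other amino acid transporters outside the 7 families gave 3 higher, 2 lower and 3 that did not pass among 8 tested, counts near the 35.4% and 34.4% of all genes, with a median of 0.25. Library size alone gave 4 higher and 1 lower. The lysosomal cystine exporter Ctns and the lysosomal exporter of cationic amino acids Pqlc2 rose by 0.81 and 1.00 on the log2 scale, and Slc17a5, a lysosomal sialic acid exporter, rose by 0.53. Slc16a10, a carrier of aromatic amino acids, fell by 0.57. Mfsd12, the other lower gene, fell by 0.26, from 80.1 to 66.9 CPM, and Slc15a4 did not pass (-0.17). Both were named after their values were seen.

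Markers of cell maturation moved in the same libraries. Of 20 tested mature myeloid markers, 16 were higher and 3 (Ly6c2, Ltf and Camp) were lower, beside 35.4% higher and 34.4% lower of all genes. Their median log2 fold change was 1.94, and their summed levels are given above with Slc7a7 and Slc7a8. Itgam (CD11b) rose by 1.96 on the log2 scale, and Adgre1 (F4/80), Ccr2 and Cxcr2 rose by 4.39, 3.17 and 2.40, while Mrc1 and Siglech were at 0. Leukemic progenitor markers were lower for 7 and higher for 4 of 11 tested genes, beside the same shares of all genes. They summed to 22813 to 25469 CPM in sgCtrl and 12387 to 13049 CPM in sgSgf29, and Cd34 was at 0. Among them Ctsg, Prtn3 and Hoxa9 fell by 3.11, 1.88 and 1.37, and Cd33 rose by 1.22. Markers of other lineages were at or near 0: B cell, T and NK cell, erythroid and stromal markers each summed to at most 1.27 CPM in every library. Megakaryocyte markers summed to 8.91 to 10.3 CPM and 5.91 to 7.85 CPM with Pf4 at 0, and mast cell and basophil markers to 9.37 to 9.99 CPM and 2.39 to 3.37 CPM with Cpa3, Mcpt4, Tpsb2 and Fcer1a at 0. The part of the maturation markers in the transporter changes was not tested, and in bulk RNA fewer cells of a type and less RNA per cell cannot be told apart.

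**Figure D5:**
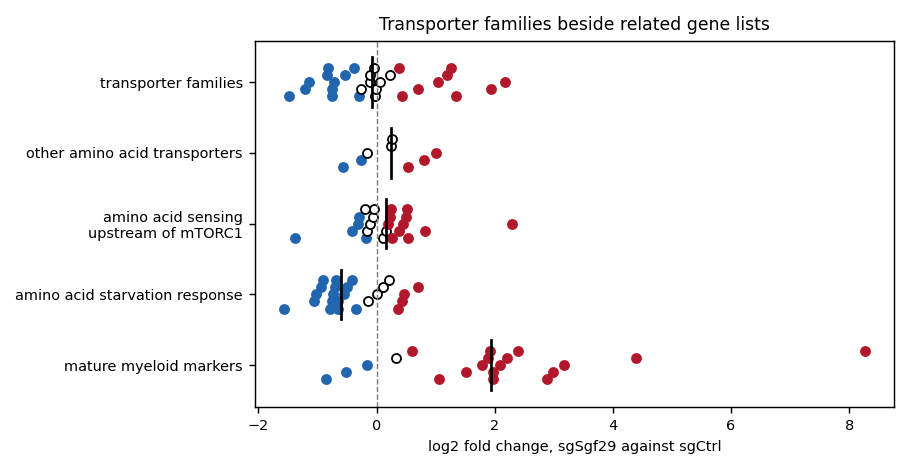
Log2 fold change (x axis) of the 28 tested transporter family genes and of the tested genes of 4 lists, with filled points called lower or higher by edgeR (adjusted p under 0.05), open points that did not pass, black bars at each median and a dashed line at the median of all genes (0.01). The medians are -0.07 for the transporter families, 0.25 for other amino acid transporters, 0.16 for amino acid sensing, -0.60 for the starvation response and 1.94 for mature myeloid markers.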

How the data were processed

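RNA-seq libraries of MLL-AF9-Cas9+ cells (3 sgCtrl and 3 sgSgf29) were analysed. The other 8 samples of the series, of chromatin immunoprecipitation and a single input, were not used here. The authors deposited raw counts per gene in 1 table. Aligner and counter are given as STAR v2.6.1d (mm10) and featureCounts v1.6.4 in the study's methods, whereas STAR 2.6.0a and GRCm38 stand in the notes of the submitters. The table also holds 5 bookkeeping entries of the kind htseq-count writes (25.8 to 31.4% of all counts per library), which entered neither library sizes nor tests. Not given in the sources used here: annotation, strand setting and treatment of marked duplicates.

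Counts that passed filterByExpr (minimum count 10, minimum total 15) were scaled by TMM, and edgeR 4.0.16 (R 4.3.3) gave quasi-likelihood tests, adjusted by Benjamini-Hochberg over 11169 genes and calls at an adjusted p under 0.05. The procedure was tested on simulated data for sgSgf29 against sgCtrl (11089 genes) and recovered 96 of 100 genes changed 2-fold and 90 of 100 changed 1.5-fold, with 13 false calls of 199. Only these genes were changed in the simulation, as many up as down. It cannot test the scaling where many genes change, as in these data. Libraries of a group differed by more than sampling noise, with a chi-square of 4.48 to 15.4 per degree of freedom. Exon lengths, positions and overlaps come from GENCODE vM21 on GRCm38, and promoters from RefSeq. Alternatives used other scalings, filters and thresholds, DESeq2 1.42.0, limma-voom (limma 3.58.1), a replicate block and each library left out.

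The members and gene lists were chosen with earlier results of these data known. Every tested member is named, and 1 member that was not tested is not reported here. Values per library are given for called members that reached 5 CPM in either group mean, and up to 4 called genes with the smallest adjusted p are named from each list. Other genes were named after their values were seen. Promoters are shown for such members only, and of these for those with TGATGNAA or CACGTG.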

Additional observations from a re-analysis of the deposited data

How the results depend on the processing

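Of the 20 called members, 17 kept their call and direction in all 16 alternatives and none changed direction, and Slc38a10, Slc7a11 and Slc36a2 lost the call in some of them, as given above. With library size alone, which raised the median of all genes from 0.01 to 0.24 and lowered the share of lower calls from 49.3% (3842 lower, 3957 higher) to 30.0% (2385 lower, 5575 higher), 1 of the other amino acid transporters and 1 of the amino acid sensing genes were lower and 7 starvation response genes were higher. The same scaling gave log2 fold changes of 0.19 for Slc38a1, 0.12 for Slc38a2, 0.13 for Slc38a6, 0.22 for Slc6a13 and 0.21 for Slc7a5, all negative with TMM, and 0.29 for Slc38a9, and Slc38a1, Slc38a9, Slc6a13 and Slc7a5 then passed as higher. Upper-quartile scaling gave 0.017 for Slc6a13 and 0.0067 for Slc7a5. With each library left out in turn, members lower ran from 11 to 12 and members higher from 8 to 9, and the log2 fold change ran from -0.47 to 0.16 for Slc3a1, from -0.037 to 0.14 for Slc38a9, from -0.056 to 0.056 for Slc6a13, from -0.017 to 0.41 for Slc6a20b and from -0.075 to 0.055 for Slc7a5. A change of scaling acts on all genes of a library alike, and the median of all genes moved too. The cause of the shifts with a library left out was not tested.

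The libraries share replicate numbers, but deviations from the group means correlated by only 0.0051, 0.055 and 0.078 for equal numbers, so the numbers were not taken to pair the samples. Not every library correlated best with its own number. With a replicate block, 11 members were lower and 9 higher, and 3937 genes in all were lower and 4059 higher. Without a filter on low counts, 39 members were tested, of which 11 were lower and 10 higher, with Slc36a3 (2 counts in sgCtrl and 22 in sgSgf29) as the added call. At 3 libraries a group, rare members such as Slc3a1, with 12 to 30 counts per library, had wide intervals. Intervals and tests cover the spread between these libraries only.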
